A study of Mus musculus with 5 samples.

Results

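The Myt1 family of zinc finger transcription factors has 3 genes in the mouse, St18, Myt1 and Myt1l, and each had a row under its own symbol among the 23234 genes of the authors' table. The members were selected on symbol, with the values of the Ptf1a comparison already known, so their levels and differences in that comparison are given as a description. Cortices of CD1 mouse embryos were electroporated on embryonic day E12.5 and harvested on E15.5, and cells carrying green fluorescent protein (GFP) were sorted from them. The control group received a GFP-only construct (2 samples), and the other group received a construct carrying both Ptf1a and GFP (3 samples). All animals were electroporated and all sorted cells carried GFP. Each sample pooled 3 to 6 brains, so no value belongs to 1 animal. The promoter of the constructs is not given in the sources used here. The table holds 1 merged value per gene and group in FPKM, fragments scaled to transcript length and library size, so levels can be compared between genes of different length. No value per sample, SD or depth can be given, and differences between samples of a group cannot be described. The labels call the cells pyramidal neurons. The pyramidal factor Neurod6 stood at 1717 FPKM in controls and 1190 FPKM with Ptf1a, and Tbr1, a deep-layer pyramidal factor, at 15.1 and 8.29 FPKM. Transcripts of radial glia, the progenitors, were abundant in both groups too. Fabp7 stood at 1652 FPKM in controls and 3095 FPKM with Ptf1a, and Vim at 107 and 246 FPKM, both names picked with their values in view.

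Proteins of the family share zinc fingers of a rare type that places cysteines and histidines in a pattern of its own, and they bind DNA at sites built around AAGTT. They can act as repressors during neuronal differentiation, and recruit Sin3 and histone deacetylase complexes. Myt1l is expressed in nearly all neurons, keeps non-neuronal genes silent there, and is used with other neuronal factors to turn fibroblasts into neurons. Myt1 is expressed in neuronal precursors, in the oligodendrocyte lineage and in endocrine precursors of the pancreas, where it acts beside Neurog3. St18, also named Nzf3 or Myt3, is expressed in islet cells and in neurons born in the medial ganglionic eminence, the ventral source of pallidal neurons. Ptf1a, the factor carried by the construct, is a basic helix-loop-helix (bHLH) protein that binds DNA together with an E protein and Rbpj or its paralog Rbpjl.

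RefSeq start sites of the members (GRCm38.p6) are shown to set the sequence before them beside the levels. The 250 bases before each start were searched on both strands for AAGTTT, a form of the family's own site, for the E-box CANNTG, and for TGGGAA, the Rbpj part of a Ptf1a site. Myt1 had 3 windows and Myt1l had 5 in the RefSeq table, and St18 is named only. The windows printed are the Myt1 start at the beginning of the gene, the Myt1 start that had all 3 motifs (picked for its matches), and the Myt1l start nearest the beginning of that gene. Capitals mark every match. They lie on the plus strand at chr2:181763082-181763331, chr2:181796057-181796306 and chr12:29528134-29528383.
Myt1 first start: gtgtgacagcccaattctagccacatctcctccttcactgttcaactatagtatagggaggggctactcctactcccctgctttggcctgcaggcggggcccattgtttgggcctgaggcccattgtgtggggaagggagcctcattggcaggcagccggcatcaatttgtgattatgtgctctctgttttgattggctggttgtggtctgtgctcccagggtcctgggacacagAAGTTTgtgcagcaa
Myt1 internal start: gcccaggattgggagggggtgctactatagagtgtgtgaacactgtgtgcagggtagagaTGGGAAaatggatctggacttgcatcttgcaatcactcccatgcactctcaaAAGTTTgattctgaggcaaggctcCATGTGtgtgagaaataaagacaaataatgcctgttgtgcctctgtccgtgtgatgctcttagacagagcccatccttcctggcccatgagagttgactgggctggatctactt
Myt1l start: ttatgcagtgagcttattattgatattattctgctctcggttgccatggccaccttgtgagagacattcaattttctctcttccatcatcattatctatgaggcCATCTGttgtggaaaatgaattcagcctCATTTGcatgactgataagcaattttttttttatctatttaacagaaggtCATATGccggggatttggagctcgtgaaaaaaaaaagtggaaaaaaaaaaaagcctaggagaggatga

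The first Myt1 window held 1 AAGTTT, beginning 15 bases before the start, and neither of the other motifs. The internal Myt1 window held TGGGAA 190 bases, AAGTTT 138 bases and an E-box 114 bases before its start. The Myt1l window held 3 E-boxes, at 146, 118 and 68 bases, and neither other motif. Of all 8 member windows 2 held AAGTTT, 6 held an E-box, 1 held TGGGAA and 1 held none, and no Myt1l window held AAGTTT or TGGGAA. Across 32851 such windows in RefSeq, 12.8% held AAGTTT, 66.2% held an E-box and 21.6% held TGGGAA. These matches describe letters in the windows and were not tied to binding in these cells.

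In control cells the family consisted almost entirely of Myt1l. Myt1l stood at 25.5 FPKM, Myt1 at 1.27 FPKM and St18 at 0.467 FPKM. Myt1l thus made up 93.6% of the summed family FPKM, Myt1 4.67% and St18 1.71%. The order of the control levels was Myt1l, Myt1, St18, with Myt1l 20.1 times the level of Myt1 and 54.6 times that of St18. Among tested genes, 76.7% had a lower control level than Myt1l, 22.8% a lower one than Myt1, and 5.83% a lower one than St18. St18 was therefore among the weakest genes with a test, and Myt1l among the more abundant ones.

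With Ptf1a the order changed. Myt1l stood at 34.0 FPKM, St18 at 10.00 FPKM and Myt1 at 1.99 FPKM, so that St18 passed Myt1. St18 had 0.367 times the FPKM of Myt1 in controls and 5.03 times with Ptf1a. The share of the family held by St18 was 21.8%, that of Myt1l 73.9% and that of Myt1 4.33%. St18 now lay above 63.1% of tested genes, against 80.8% for Myt1l and 29.3% for Myt1. The summed family level went from 27.3 to 45.9 FPKM, a ratio of 1.69. St18 accounted for 51.0% of that gain, Myt1l for 45.1% and Myt1 for 3.83%. These shares rest on the printed FPKM of Myt1l, whose ratio is larger than its deposited fold, as given below.

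**Figure D1:**
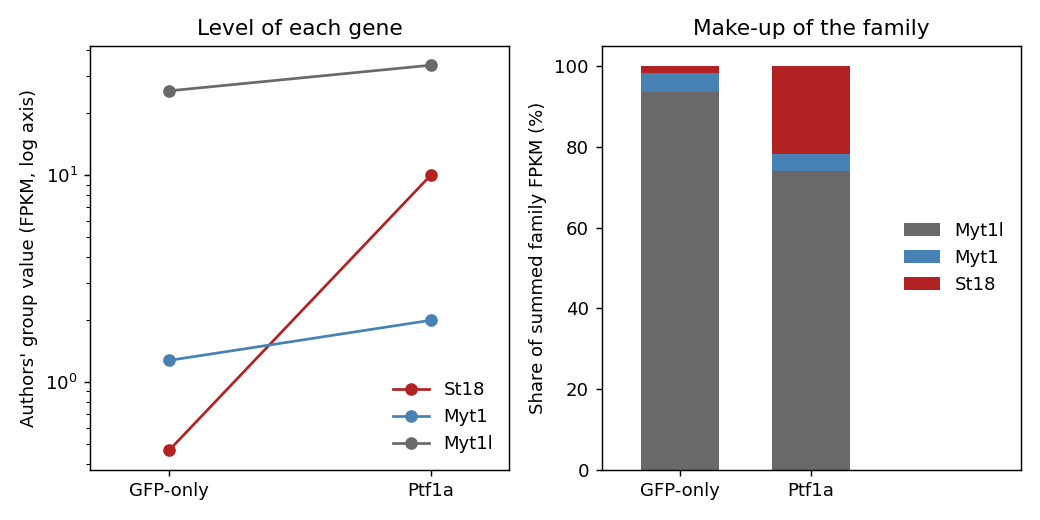
Left, the authors' group value of St18, Myt1 and Myt1l in FPKM (log axis) in the GFP-only and Ptf1a groups, 1 point per group with no error bar because the table holds 1 value per group. Right, each gene's share of the summed family FPKM in percent; the St18 share goes from 1.71% to 21.8% while the Myt1l share goes from 93.6% to 73.9%.

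St18 (chromosome 1, 6477312 to 6851021, mm9), the member least expressed in controls, had the largest ratio between the groups of the 3 members. Its value of 10.00 FPKM with Ptf1a was 21.4 times its control value of 0.467 FPKM, and on the log2(FPKM + 0.1) scale the difference was 4.15. The authors' deposited table gave it a log2 fold of 4.42 with a test statistic of 9.08 and q = 0.000329. The ratio of fold to statistic, a rough standard error on the log2 scale, was 0.49. The authors' p of 5e-05 for St18 is the smallest in the table and was shared by 1803 tested genes, 15.2% of all, so it does not rank St18 among them. By size, St18 was the 51st of 11876 tested genes from the top, and the 37th of 10622 once small RNAs and unnamed models were left out. When tested genes were divided into 10 equal bins by mean level, the differences had an SD of 1.21 in the weakest bin and 0.371 in the most abundant. St18 was therefore also set beside genes of like level. Among 1745 tested genes within 2-fold of its control level, between 0.234 and 0.935 FPKM, St18 had the 5th largest difference. There the median difference was 0.48 and the median level with Ptf1a was 0.817 FPKM. At such control levels having a test may depend on the level with Ptf1a, so this median can lean upward. With a pseudocount of 1 in place of 0.1 its difference was 2.91.

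Myt1 (chromosome 2, 181498037 to 181562480, mm9) stood at 1.99 FPKM with Ptf1a against 1.27 FPKM in controls, a ratio of 1.56 and a difference of 0.61 on the log2(FPKM + 0.1) scale. The authors' deposited table gave Myt1 a log2 fold of 0.64 with a test statistic of 1.50 and q = 0.00390. Among the 1187 tested genes in the same of 10 bins of mean expression, 263 had a larger difference. Myt1 thus lay just above the upper quartile of that bin, 0.55. The median difference in that bin was 0.16.

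Myt1l (chromosome 12, 30213249 to 30608074, mm9) stood at 34.0 FPKM with Ptf1a against 25.5 FPKM in controls, a ratio of 1.33 and a difference of 0.41 on the log2(FPKM + 0.1) scale. The authors' deposited table gave Myt1l a log2 fold of 0.35 with a test statistic of 1.79 and q = 0.00390, the same q as Myt1. That deposited fold is smaller than the log2 ratio of the deposited FPKM of Myt1l, 0.41 with no pseudocount. Among 11831 tested genes above 0 in both groups, 5 had a deposited fold more than 0.01 from that ratio, and Myt1l was 1 of them. The fold and the test of Myt1l may therefore not describe the printed FPKM values, and the reason was not tested. Each of the 5 genes shared its coordinates with another row, as did 2193 of the 11831. In FPKM the gap of Myt1l, 8.43, was close in size to that of St18, 9.53, and much wider than that of Myt1, 0.716. In the bin of mean expression that holds Myt1l, the median difference was slightly below 0 at -0.09, with quartiles of -0.31 and 0.12. There Myt1l ranked 92nd of 1188 from the top, and 12.0% were marked higher and 23.7% lower. A second row, C630031E19, had the same coordinates as Myt1l and stood at 0.101 and 0.132 FPKM without a test, so reads of these rows could have been divided by the counting.

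All 3 members were marked higher by the authors at q under 0.05, where 18.7% of the 11876 tested genes were marked higher and 19.1% lower. The members were chosen with these marks known, so nothing is read from the count. For Myt1 and Myt1l the mark depends on how the p-value was made. When p was taken instead from a normal distribution of the deposited statistic (two-sided, adjusted over all genes with the Benjamini-Hochberg method), it was 0.513 for Myt1 and 0.373 for Myt1l, against 7.67e-17 for St18. In these bulk samples more cells expressing a gene and more RNA per cell cannot be told apart.

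**Figure D2:**
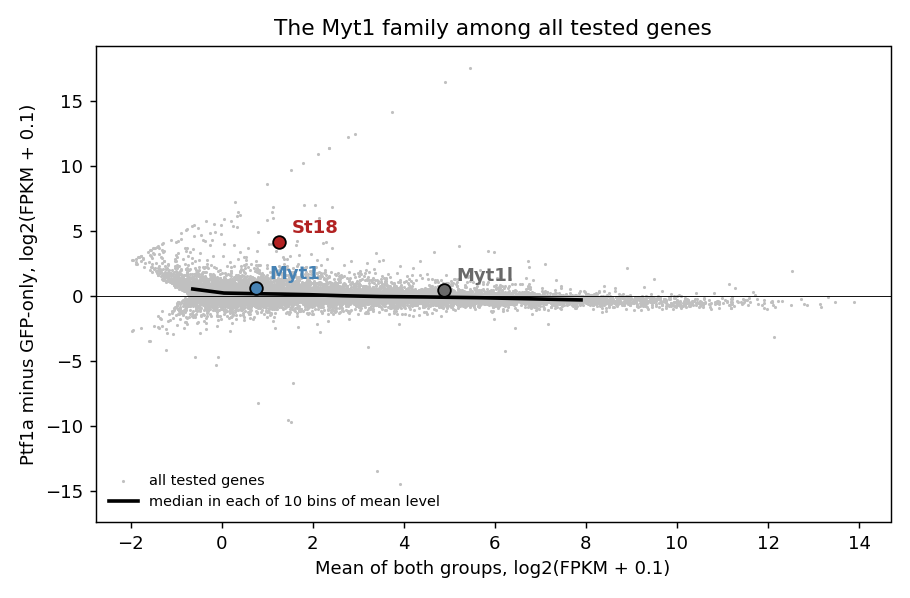
Difference between Ptf1a and GFP-only in log2(FPKM + 0.1) against the mean of both groups on the same scale, 1 grey point for each of 11876 tested genes; the black line joins the medians of 10 bins of mean level. St18 sits at 4.15, far above the line. Myt1 (0.61) and Myt1l (0.41) also sit above the line, inside the cloud of genes of their own level.

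The genes nearest to each member in both group values were found among named tested genes, by the larger of the 2 gaps on the log2(FPKM + 0.1) scale. Only 2 group values enter, so likeness here means similar levels. Nearest to St18 were Hepacam2 (gap 0.25), Cxcl14 (0.30), Tnnt1 (0.42) and Bdh2 (0.42), and the match itself places all 4 higher with Ptf1a. Hepacam2 went from 0.438 to 8.38 FPKM and Cxcl14, a chemokine, from 0.412 to 8.08 FPKM. Near Myt1 lay Cdk5rap2, Rtp4, Kifc2 and Tnpo1, all within 0.038, of which Rtp4 was not called (q = 0.0606 in the authors' deposited table). Near Myt1l lay Ubac2, Rangrf, Gnai2 and Mta2, all within 0.055, of which Rangrf was not called (q = 0.0711 in the authors' deposited table). The genes nearest to St18 thus lay further from it than those nearest to the other members.

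None of the 5 tested genes beside the members on the chromosome rose. Over all tested genes 18.7% rose and 19.1% fell, so nothing is read from a count of 5. Pcmtd1, the next named gene after St18 at a distance of 228 kb, fell from 4.06 to 3.10 FPKM. On the other side Fam150a, 92.5 kb away, was listed at 0 in controls and at 0.0441 FPKM with Ptf1a, with no test. Pcmtd2, the paralog of Pcmtd1 that lies 10.1 kb after Myt1, was not called at 3.31 and 3.86 FPKM. Oprl1, the nociceptin receptor gene before Myt1, fell from 11.0 to 7.38 FPKM. The named genes next to Myt1l were Tssc1, 661 kb before it, and Pxdn, 14.8 kb after it. Tssc1 fell from 93.3 to 68.4 FPKM. Pxdn, an extracellular peroxidase gene, was not called at 0.872 and 0.773 FPKM.

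Partners and neighbouring pathways of the family were described from lists, by the authors' q under 0.05, to show the setting in which the members' levels differed. Over all tested genes the median difference was -0.0088 on the log2(FPKM + 0.1) scale, and 18.7% rose and 19.1% fell. Each count of risen or fallen genes below stands beside these shares. The shares vary with level: 34.2% rose and 5.05% fell in the weakest of 10 bins of mean level. In the most abundant bin 3.45% rose and 58.8% fell. By the normal p used above, the 12 lists had 21 risen genes in place of 39 and 6 fallen genes in place of 22.

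Of 7 corepressor genes 3 rose and 2 fell, with a median difference of 0.24. Rcor1 (1.90 to 3.52 FPKM) and Rcor2 (7.26 to 10.8 FPKM), scaffolds of the Kdm1a demethylase complex, rose, as did Sin3a (2.28 to 3.02 FPKM), chosen after its values were seen. Sin3b, a scaffold bound by Myt1 and Myt1l, fell from 202 to 141 FPKM, and the deacetylase gene Hdac2 fell from 82.9 to 62.9 FPKM. Hdac1 (61.4 and 72.5 FPKM) and Kdm1a (13.5 and 12.7 FPKM) were not called. The corepressors were therefore expressed in both groups, at levels above those of Myt1. By the normal p 0 rose and 0 fell.

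Factors that act with the family in neurogenesis moved in both directions. Of 9 tested bHLH and POU factors 5 rose and 3 fell, with a median difference of 0.46. The proneural genes Neurog1 (0.205 to 2.39 FPKM), Neurog2 (4.04 to 13.3 FPKM) and Neurog3 (0.311 to 0.813 FPKM) rose. Neurog3 was weak in both groups and passed only narrowly, with q = 0.0492 in the authors' deposited table. Pou3f2 (7.08 to 9.76 FPKM) and Pou3f3 (11.1 to 15.3 FPKM) rose as well; both names were picked with their values in view. Neurod6 fell, as did Neurod1 (50.6 to 35.9 FPKM) and Neurod2 (46.8 to 37.3 FPKM), picked in the same way; these factors act later, in young neurons. By the normal p 2 factors rose and 0 fell.

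Notch pathway genes were examined because the Notch target Hes1 is among the genes that Myt1l represses. Of 15 tested members 9 rose and 1 fell, with a median difference of 0.97. Of these 15, 5 belonged to the weakest bin by mean level, where 34.2% of all 1188 genes rose. Hes1 went from 5.09 to 14.5 FPKM and Hey1 from 4.67 to 13.8 FPKM. The modifier Lfng (0.518 to 3.25 FPKM) and the feedback inhibitor Nrarp (0.668 to 2.98 FPKM) differed by more on the log2(FPKM + 0.1) scale, though by less in FPKM. Dll3, which fell from 1.68 to 0.958 FPKM, was chosen after its values were seen. Rbpj (3.32 and 4.13 FPKM) and Numbl (2.04 and 1.86 FPKM) were not called. By the normal p 7 rose and 0 fell. Hes1, which is also in the radial glia list below, and the members of the family all stood higher with Ptf1a. Whether Myt1l acted on Hes1 in these cells was not tested.

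Other zinc finger factors of neuronal differentiation moved both ways. Of 12 tested, 6 rose and 3 fell, with a median difference of 0.32. Zfp521 (0.270 to 1.18 FPKM), Zeb1 (1.47 to 3.87 FPKM), Scrt2 (5.83 to 10.9 FPKM) and Insm1 (4.74 to 8.46 FPKM) rose. Zfp238 (62.6 to 41.5 FPKM), Zeb2 (6.28 to 4.81 FPKM) and Bcl11b (9.15 to 6.12 FPKM) fell; they were chosen after their values were seen. Scrt1 (0.738 and 0.928 FPKM) and Prdm8 (4.31 and 4.52 FPKM) were not called. By the normal p 3 rose and 0 fell. The difference of St18 exceeded that of each tested gene in the 12 lists.

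Settings in which the members are expressed elsewhere were examined next. Of 7 tested endocrine islet factors 5 rose and 1 fell, with a median difference of 0.82. Pax6 rose from 3.73 to 21.5 FPKM. Neurog3, which passed only narrowly, and Insm1, both already given, belong here too, as does Neurod1, which fell. Rfx6, Mafa and Foxa2, defining islet or endodermal factors, were listed at 0 in both groups, and Pax4 at 0 in controls and 0.0727 FPKM with Ptf1a. With the normal p 1 rose and 0 fell. Pax6 and Isl1 are also expressed in the developing forebrain.

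Genes of the medial ganglionic eminence and its neurons rose in 6 of 7 tested cases and fell in 0, with a median difference of 1.17. The other 6 had no test. Gbx2 (0.522 and 0.586 FPKM) had none while Gad1 (0.522 and 1.16 FPKM) had one, both names picked with their values in view. Genes weak in controls may thus have been tested through a higher level with Ptf1a. The count, the median and the shares of the weak bins can therefore lean upward. Weak genes rose more often in general: 4 of the 7 lay in the second-lowest bin of mean expression, where 25.5% of genes rose, 7.74% fell and the median difference was 0.21. Another lay in the lowest bin, where 34.2% rose, 5.05% fell and the median difference was 0.52. Gad2 (1.05 to 3.39 FPKM), Sox6 (0.536 to 1.57 FPKM), Lhx6 (0.691 to 1.72 FPKM) and Lhx8 (0.259 to 0.706 FPKM) rose, and Dlx1 (0.654 and 1.22 FPKM) was not called. Nkx2-1, which defines that region, stood at 0.168 and 0.290 FPKM without a test, and Gbx1 was listed at 0 in both groups. The summed level of the 13 genes found was 8.77 FPKM in controls and 19.2 FPKM with Ptf1a. With the normal p 2 of the 7 rose. The part of this list in the St18 level was not tested.

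Most markers of oligodendrocyte precursors, a lineage that expresses Myt1, were too weak for a test. Of 9 markers 8 had no test, and Sox10 (0.0133 and 0.0389 FPKM) and Pdgfra (0.0460 and 0.126 FPKM) were lower than Myt1 in both groups. The only marker with a test, Lhfpl3, fell from 4.19 to 0.994 FPKM. The 9 markers summed to 5.26 FPKM in controls and 2.54 FPKM with Ptf1a, and Lhfpl3 carried that difference. Without it the other 8 summed to 1.07 FPKM in controls and 1.55 FPKM with Ptf1a, with 6 higher and 2 lower.

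Markers of cell stage moved with the groups. All 10 radial glia markers rose, with a median difference of 1.42, and their sum went from 1808 to 3469 FPKM. Fabp7, picked with its values in view, held most of both sums (1652 and 3095 FPKM) and had a difference of 0.91. Among them Nes rose from 1.03 to 5.15 FPKM, Sox9 from 2.48 to 7.15 FPKM, and Pax6 and Hes1 as given above. Of 11 tested early neuron markers 0 rose and 9 fell, with a median difference of -0.49. Gap43 (923 to 465 FPKM), Stmn2 (1504 to 794 FPKM), Tbr1 and Neurod6 fell, and Snap25 (68.2 and 63.6 FPKM) and Elavl4 (49.1 and 43.2 FPKM) were not called. Tubb3 was listed at 0 in controls in a row marked as having too much data, so it is a failed estimate. With the normal p 3 fell. Abundant genes fell more often in general. Of the early neuron markers 3 lay in the highest of 10 bins of mean expression, where 58.8% of 1188 genes fell and 3.45% rose. The others lay in bins 6 to 9, where 14.8% to 32.2% of genes fell. Of the radial glia markers 2 lay in the highest bin. The rest lay in bins 4 to 8, where 12.0% to 23.5% of genes rose. Myt1l, a neuronal gene, stood higher with Ptf1a while 9 of the early neuron markers fell. The part of cell stage in the members' levels was not tested.

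Markers of other cells that the sort could hold were measured too, and Hbb-b2, a globin gene, stood above Myt1l in both groups. Of 6 endothelial markers 5 had no test, and Cldn5 (2.87 and 4.09 FPKM) was not called. The sums were 3.26 FPKM in controls and 4.48 FPKM with Ptf1a. Of 4 tested microglia markers Tyrobp fell (4.90 to 1.85 FPKM), though not by the normal p, and C1qa (2.29 and 2.33 FPKM) and C1qb (4.20 and 3.24 FPKM) were not called; the 6 markers summed to 14.6 and 9.24 FPKM. Red blood cell genes fell in 3 of 5, Hba-x (8.83 to 1.92 FPKM), Hbb-y (32.0 to 10.6 FPKM) and Hbb-b2 (90.2 to 40.7 FPKM). Hba-a2 (14.0 and 5.77 FPKM) and Alas2 (4.29 and 3.15 FPKM) were not called. With the normal p 2 of the red blood cell genes fell. The red blood cell sums were 149 and 62.1 FPKM, without the listed globins Hbb-b1 and Hba-a1, which had no row under those symbols. None of these 3 lists had a risen gene.

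**Figure D3:**
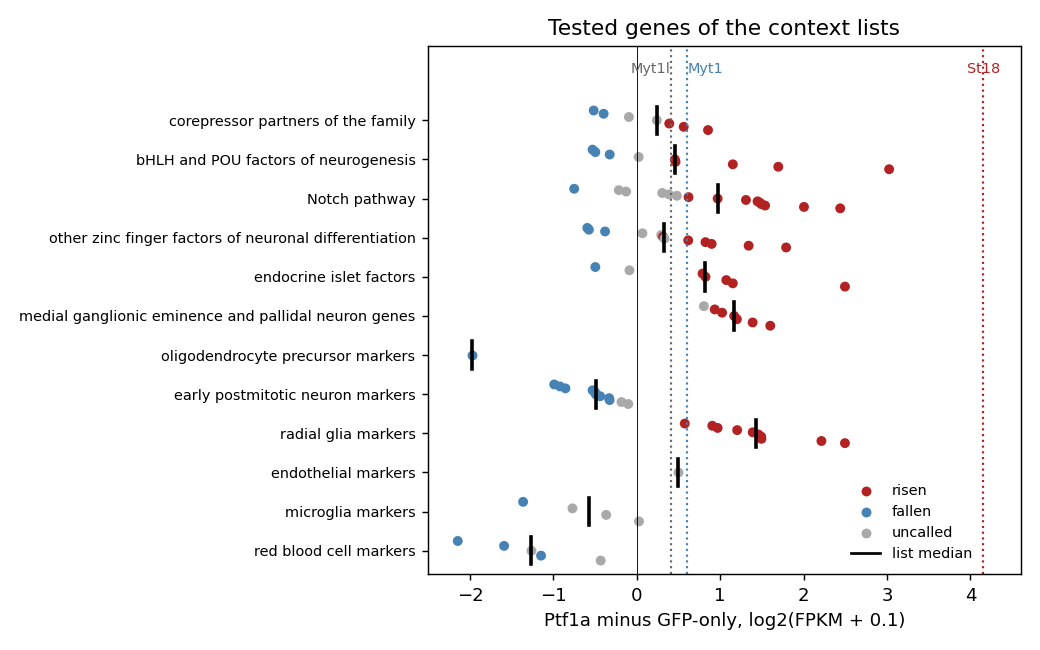
Difference between Ptf1a and GFP-only in log2(FPKM + 0.1) for each tested gene of the 12 lists, coloured by the authors' q under 0.05 as risen, fallen or uncalled, with the list median as a black bar; dotted lines mark the members. St18 at 4.15 lies right of each point, and radial glia markers lie right of 0 while early neuron markers lie left of it.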

How the data were processed

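RNA from 2 GFP-only and 3 Ptf1a samples (2.1 to 7.8 ng each, amplified) was sequenced. The authors' tools were TopHat2 2.0.8, CASAVA 1.8.2, Cuffdiff and Cufflinks 2.1.1, on mm9, per the submitters' processing notes; the annotation and parameters are not given in the sources used here. The authors' FPKM values, 1 per group, their log2 fold change, the test statistic (a signed score) and their p-value and q-value stood in the deposited table, per the file headers. The column group headed PIG was read as Ptf1a because the other was headed GFP. Depth per sample is unknown, and low-input amplification adds variation to weak genes. Of the rows, 11876 had a test. Their q equalled a Benjamini-Hochberg adjustment of the deposited p within 5.2e-07, and a q under 0.05 matched the authors' mark in all 23234 rows.

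Members and lists were chosen with earlier results of these data known. Differences were computed as log2(FPKM + 0.1), Ptf1a minus control, with Python 3.11.15 and pandas 2.3.3; the pseudocount understates changes of weak genes. "Rose" and "fell" mean the authors' q under 0.05. No set test was run. Named were the members, up to 4 called genes per list with the largest difference, up to 2 uncalled ones with the highest mean, the 4 genes nearest each member in level, and chromosomal neighbours; defining markers without a test, and the other names marked so in the text, were chosen after their values were seen. Some genes that this rule names are not reported here. Map2 and Zbtb18 were matched as Mtap2 and Zfp238. Coordinates are on mm9, with starts counted from 1, since the spans of St18 (373710 bp) and Myt1 (64444 bp) then equal their RefSeq lengths. The adjustment was tested on simulated data. Alternatives covered pseudocounts, centring, q thresholds, a fold minimum, an FPKM minimum and a normal p of the test statistic, which 45 tested genes lacked.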

Additional observations from a re-analysis of the deposited data

How the results depend on the processing

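The differences of St18, Myt1 and Myt1l stayed positive under each pseudocount and centring tried, and with a pseudocount of 1 that of St18 was 2.91 in place of 4.15 and that of Myt1 0.40 in place of 0.61. The q of 0.00390 of Myt1 and of Myt1l passed at 0.01 and among genes of at least 1 FPKM, but neither gene reached a 2-fold difference. With calls from the normal p of the test statistic, adjusted p was 0.513 for Myt1 and 0.373 for Myt1l. That p gave 392 risen genes in place of 2217 and 332 fallen in place of 2263 over the whole table, and 21 risen in place of 39 and 6 fallen in place of 22 in the lists. A 2-fold minimum left 792 and 222 genes over the table, and 24 and 5 of the lists. The fold minimum lowers counts by construction. The cause of the gap between the deposited p and the test statistic was not tested. Of the 24 counts per list, 12 moved by over 1.5 times with the normal p, 10 with the fold minimum, 2 at a q under 0.1 and 1 at a q under 0.01. The 24 include counts that were 0 from the outset, and those stayed at 0 with the normal p and the fold minimum. Set against 24, the numbers that moved therefore understate the change in the other counts.

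No paired analysis was possible because the deposited table holds 1 value per group. For the same reason samples were not left out in turn. Depth per sample is unknown, so genes listed at 0 have no limit here.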
